A study of Mus musculus with 4 samples.

Results

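The Pfkfb family consists of 4 genes, Pfkfb1, Pfkfb2, Pfkfb3 and Pfkfb4, which encode the isozymes of 6-phosphofructo-2-kinase/fructose-2,6-bisphosphatase. Every probe for a mouse transcript that carried one of these 4 gene names on the array was taken, which gave 6 probes of 39429, and 4 gene names of 31093. Pfkfb1 and Pfkfb2 had 1 probe each, and Pfkfb3 and Pfkfb4 had 2 each. Of these 6 probes, 5 were well above background on all 4 arrays, as were 27592 of the 39429 probes, and the sixth, the dimmer probe for Pfkfb4, was well above background on no array. The rule that takes the probes uses gene names and no measured value.

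The cells were IMS32, a Schwann cell line from the adult mouse that became immortal spontaneously and keeps some features of the glial cells that wrap peripheral axons. They were kept for 1 h in DMEM with 5% FBS that held 5 or 15 mM glucose, with 1 mM pyruvate or without it. This gave 4 groups, written for example as [Glc 15 mM/Pyr (−)] for high glucose with pyruvate left out, which shared the cell line, the serum and the exposure time. Total RNA of each group was labelled with Cy3 and hybridised to 1 one-colour Agilent array. The number of cultures behind each RNA is not stated. No group had a replicate array, so no difference between 2 arrays could be tested.

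A PFKFB protein carries a kinase that makes fructose 2,6-bisphosphate and a phosphatase that removes it again. Fructose 2,6-bisphosphate is the strongest known allosteric activator of phosphofructokinase-1 (PFK-1), which commits fructose 6-phosphate to glycolysis, and it inhibits the opposing fructose-1,6-bisphosphatase. Pfkfb1 is best known from liver and skeletal muscle, Pfkfb2 from heart, Pfkfb3 as the inducible isozyme whose kinase far outweighs its phosphatase, and Pfkfb4 from testis and as a gene induced by hypoxia.

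Before any scaling, the arrays were close in their overall signal. The 75th percentile of the processed intensity lay between 1597 and 1788, between 28475 and 30350 probes were well above background, and no spot was saturated. Relative to the spike-in control probes they were less alike. The median log2 difference of all probes was then −0.37 for 15 against 5 mM glucose with pyruvate and −0.21 for removal of pyruvate at 5 mM glucose. All 11 Schwann cell markers reported, among them S100b, Sox10 and Ngfr, were well above background on all 4 arrays, with a summed intensity from 79676 in [Glc 15 mM/Pyr (−)] to 99025 in [Glc 5 mM/Pyr (+)]. Of the markers of other cell types, 4 of 5 for fibroblasts, 3 of 4 for neurons, 4 of 4 for macrophages and 2 of 3 for endothelial cells also passed this flag, whereas Lum, Rbfox3 and Cdh5 did not. The summed intensity of the macrophage markers ranged from 1323 in [Glc 15 mM/Pyr (+)] to 2132 in [Glc 15 mM/Pyr (−)], that of the neuron markers from 6526 in [Glc 15 mM/Pyr (−)] to 10376 in [Glc 5 mM/Pyr (+)], that of the endothelial markers from 4230 to 5704 and that of the fibroblast markers from 1782 to 1913. Their part in the values below was not tested.

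The probe sequences are shown because the 2 probes for Pfkfb3, and the 2 for Pfkfb4, lay at different places along the transcript and did not give the same reading. They run 5′ to 3′ as the array design gives them. The 2 dimmer probes, which start nearer the beginning of the transcript than the brighter probe of the same gene, are shown over their whole length of 60 bases, the other 4 by their last 30 bases, and capitals mark AATAAA, the hexamer of the polyadenylation signal.
Pfkfb1: gataaagttctttttaaatattctctgatg
Pfkfb2: ggatgcttttgcattgaagtacactccttt
Pfkfb3 brighter probe: gcaagaacAATAAAaacctggttgagatac
Pfkfb3 dimmer probe: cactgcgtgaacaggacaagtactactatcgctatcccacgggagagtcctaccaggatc
Pfkfb4 brighter probe: gtgtccagcattctttgcAATAAAtacttt
Pfkfb4 dimmer probe: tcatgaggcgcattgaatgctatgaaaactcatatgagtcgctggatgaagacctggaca

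The array's annotation places the Pfkfb1 probe at chrX:147078320-147078379 on the plus strand, and the Pfkfb2 probe at chr1:132586122-132586181 on the minus strand of mm9. The brighter Pfkfb3 probe lies at chr2:11393453-11393512 on the minus strand, whereas the dimmer Pfkfb3 probe has no genome position in the annotation. The brighter Pfkfb4 probe lies at chr9:108934652-108934711 and the dimmer one at chr9:108910455-108910514, both on the plus strand. Exon and UTR annotation of mm9 was not used here, so the place along the transcript is given only by the design's own start positions. The brighter Pfkfb3 probe starts at base 4726 and the dimmer one at base 1426, and the brighter Pfkfb4 probe starts at base 3273 and the dimmer one at base 685. The Pfkfb1 and Pfkfb2 probes start at bases 1637 and 3127.

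AATAAA was found in the brighter Pfkfb3 probe and in the brighter Pfkfb4 probe and in neither dimmer probe. The same 6 letters occurred in 12.6% of all 39429 probes as printed and their reverse complement in 4.03%, so the motif is common on this array. The 4 probes for Pfkfb1, Pfkfb2 and the brighter readings of Pfkfb3 and Pfkfb4 held 35.0 to 38.3% G and C, against 45.0% in the dimmer Pfkfb4 probe and 53.3% in the dimmer Pfkfb3 probe. The 15 pairs of Pfkfb probes shared runs of at most 8 bases. Against the rest of the array, the brighter Pfkfb4 probe shared runs of 15 to 18 bases with 4 probes of other genes, and no other Pfkfb probe shared 15 bases or more. The annotation lists 4 transcripts for each Pfkfb3 probe and none for both, and together they are the 8 curated Pfkfb3 mRNAs of RefSeq (GRCm38.p6). Since no probe of the array lists more than 4 accessions, these lists may be cut short and do not show which transcripts each probe can bind.

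Values are given as processed intensity, the background-corrected brightness of a spot, in arbitrary units. For comparisons between arrays, the 75th percentile of the same array was subtracted on the log2 scale. Each Pfkfb probe was printed as 1 spot, so the error stated is that of the scanner software, which assumes at least 10% of the intensity. This error covers the reading of 1 array and says nothing of the spread between cultures. Levels were compared between arrays for the same probe. The words brighter and dimmer only name the 2 probes of a gene by their intensity, which also depends on how well each probe binds.

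Pfkfb1 was dimmest where glucose was high and pyruvate absent. Its intensity was 1144 ± 114 with and 1088 ± 109 without pyruvate at 5 mM glucose, and 994 ± 99.5 with and 793 ± 79.3 without pyruvate at 15 mM (software error, 1 array each). Relative to the 75th percentile, the first 3 arrays followed each other within the software error and the last stood below them. Its log2 difference on removal of pyruvate came to −0.03 ± 0.20 at 5 mM glucose and −0.36 ± 0.20 at 15 mM, the latter a ratio of 0.780. The array at 15 mM without pyruvate also lay lower than that at 5 mM without pyruvate, by a log2 difference of −0.36 ± 0.20. Under scaling to the spike-in probes this became −0.56, and the difference for glucose with pyruvate went from −0.04 to −0.39, so that the first 3 arrays no longer lay within the error of each other. For scale, the log2 differences of all 9197 probes in the middle of 3 equal groups by signal, where Pfkfb1 falls, had an SD of 0.29 for removal of pyruvate at 15 mM glucose and of 0.15 at 5 mM.

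Pfkfb2, the heart isozyme, differed by less than the software error in each of the 4 comparisons under the 75th percentile scaling. Its intensity was 285 ± 28.5 with and 264 ± 26.5 without pyruvate at 5 mM glucose, and 223 ± 22.4 with and 224 ± 22.5 without pyruvate at 15 mM. Both arrays at 15 mM glucose read lower than both at 5 mM, but no 2 neighbours in the order of relative levels differed beyond the error. Its log2 difference was −0.07 ± 0.20 and −0.03 ± 0.20 on removal of pyruvate at 5 and 15 mM glucose. Between 5 and 15 mM glucose it was −0.19 ± 0.20 with pyruvate and −0.14 ± 0.20 without. Under scaling to the spike-in probes these became −0.54 and −0.34, and removal of pyruvate at 5 mM glucose gave −0.26, all beyond the error. The 4 arrays spanned 0.21 on the log2 scale for Pfkfb2, a 1.16-fold range.

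**Figure D1:**
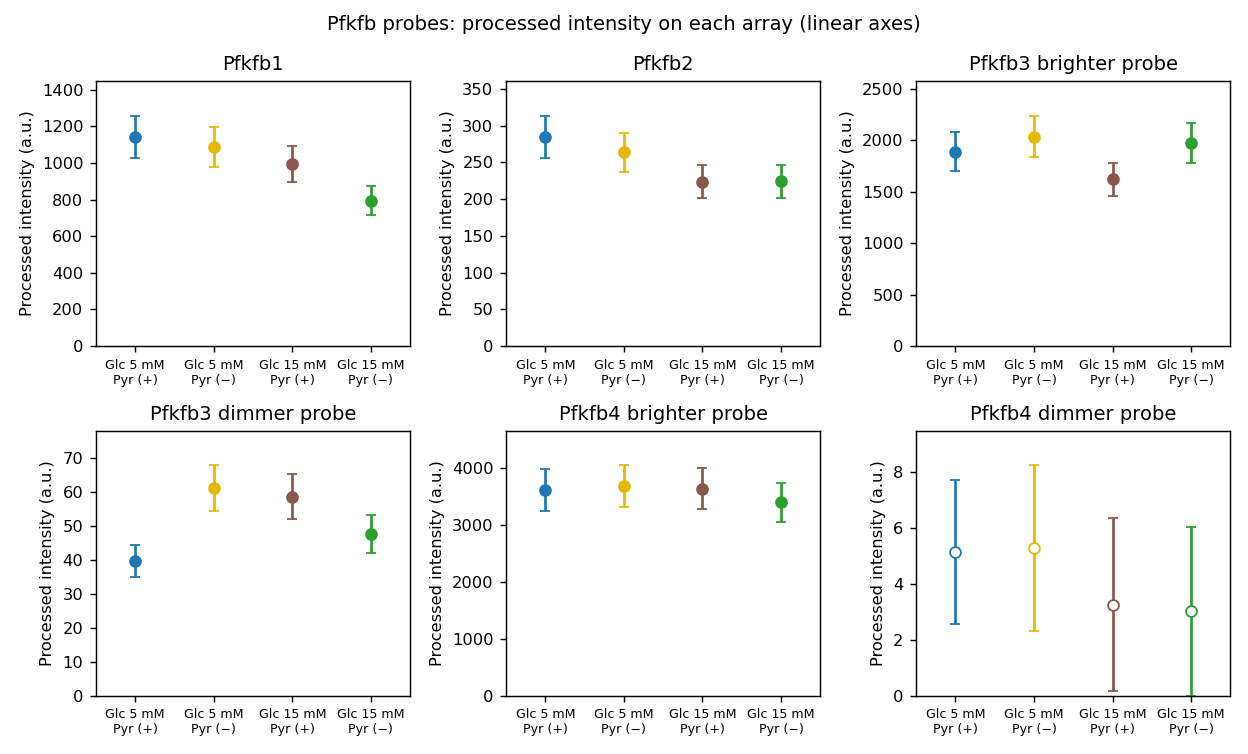
Processed intensity (arbitrary units, linear axes from 0) of the 6 Pfkfb probes on the 4 arrays, 1 panel per probe; points are single arrays, bars the software error, and open points are not well above background. Pfkfb1 is lowest in [Glc 15 mM/Pyr (−)] at 793, and the dimmer Pfkfb3 probe is lowest in [Glc 5 mM/Pyr (+)] at 39.7.

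Pfkfb3, the inducible isozyme, gave a small difference with pyruvate at its brighter probe. This probe read 1891 ± 189 with and 2038 ± 204 without pyruvate at 5 mM glucose, and 1623 ± 162 with and 1975 ± 198 without pyruvate at 15 mM. Relative to the 75th percentile, both arrays without pyruvate lay above both with it, an order that was lost at 5 mM glucose under the spike-in scaling. The log2 difference on removal of pyruvate came to 0.15 ± 0.20 at 5 mM glucose and 0.25 ± 0.20 at 15 mM, ratios of 1.11 and 1.19, and under scaling to the spike-in probes the first became −0.04. The 2 differences for glucose were −0.06 and 0.05, both within the error, but under the spike-in scaling they became −0.41, beyond the error, and −0.15.

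The dimmer Pfkfb3 probe gave another picture. It read 39.7 ± 4.69 with and 61.1 ± 6.75 without pyruvate at 5 mM glucose, and 58.7 ± 6.59 with and 47.7 ± 5.59 without pyruvate at 15 mM. The array with 5 mM glucose and pyruvate was the lowest of the 4, and the array in which both were altered lay between it and the 2 arrays in which 1 was altered. The log2 difference on removal of pyruvate came to 0.66 ± 0.23 at 5 mM glucose and −0.33 ± 0.23 at 15 mM. Between 5 and 15 mM glucose it was 0.73 ± 0.24 with pyruvate and −0.27 ± 0.23 without, the largest of these being a ratio of 1.65. Over 6 alternative scalings and corrections the 0.73 ranged from 0.38, under the spike-in scaling, to 0.91. In order of relative level under the scaling used, the 2 arrays with 1 alteration did not differ beyond the error, and both lower neighbours did. This order depended on the processing. Under normexp, another background correction, the −0.27 became −0.14, within the error. Under the spike-in scaling, removal of pyruvate at 5 mM glucose gave 0.47, and glucose without pyruvate gave −0.46. The array with both altered then lay about level with the lowest one.

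This probe was among the dim ones, and such probes varied more between arrays. In the lowest of the 3 groups by signal, the log2 differences of all 9197 probes had an SD of 0.34 and 0.44 for removal of pyruvate at 5 and 15 mM glucose, against 0.09 and 0.17 in the highest group. For 64 probes of the lowest group that were printed in replicate, the median SD between spots of 1 array was 0.16 to 0.18 on the log2 scale. Under the scaling used, the 2 Pfkfb3 probes differed by more than their joint software error in all 4 comparisons and had opposite signs in 3. The gap, dimmer minus brighter, was 0.51 ± 0.31 and −0.58 ± 0.31 for removal of pyruvate at 5 and 15 mM glucose, and 0.78 ± 0.31 and −0.31 ± 0.31 for glucose with and without pyruvate. Their mean would read 0.40, −0.04, 0.33 and −0.11 in the same order, so no single value is given for the gene. The gap depended on the processing. Under normexp, removal of pyruvate at 5 mM glucose gave 0.39 at the dimmer and 0.15 at the brighter probe. For glucose without pyruvate the same 2 probes gave −0.14 and 0.05 under normexp, and −0.22 and 0.05 under quantile normalization. These gaps lay within the joint error of 0.31. For removal of pyruvate at 15 mM glucose and for glucose with pyruvate, the gap stayed beyond it under every alternative.

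The genes whose 4 values most resembled those of the dimmer Pfkfb3 probe were sought by the Euclidean distance between log2 profiles centred on their means. The search took those of the 27592 probes well above background on all 4 arrays that carried a RefSeq symbol other than Pfkfb3. The 3 nearest were Olfr46, an olfactory receptor gene, at 0.04, Tph1, a tryptophan hydroxylase gene, at 0.07 and Ccdc113 at 0.13. Their intensities were 27.3 to 41.7 for Olfr46, 14.8 to 21.9 for Tph1 and 10.9 to 15.8 for Ccdc113, all dim. The other 4 measured Pfkfb probes spanned under 0.5 on the log2 scale and were not searched, since a flat profile resembles most genes, and the dimmer Pfkfb4 probe was not searched because it was not well above background.

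Pfkfb4, the hypoxia-inducible isozyme, was even across the arrays at its brighter probe. It read 3610 ± 361 with and 3675 ± 368 without pyruvate at 5 mM glucose, and 3633 ± 363 with and 3395 ± 339 without pyruvate at 15 mM. The 4 relative levels spanned 0.17 on the log2 scale, a 1.13-fold range, and no neighbours in their order differed beyond the error. The log2 difference on removal of pyruvate came to 0.06 ± 0.20 at 5 mM glucose and −0.13 ± 0.20 at 15 mM. For glucose it was 0.17 ± 0.20 with pyruvate and −0.02 ± 0.20 without. Under the spike-in scaling, 0.06 became −0.12 and 0.17 became −0.18, and the −0.02 for glucose without pyruvate became −0.22, beyond the error.

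The dimmer Pfkfb4 probe read 5.14 ± 2.58 with and 5.28 ± 2.96 without pyruvate at 5 mM glucose, and 3.26 ± 3.10 with and 3.02 ± 3.02 without pyruvate at 15 mM. It was not well above background on any array, and no difference is given for it. At this place in the transcript, therefore, the arrays give no second reading of Pfkfb4.

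**Figure D2:**
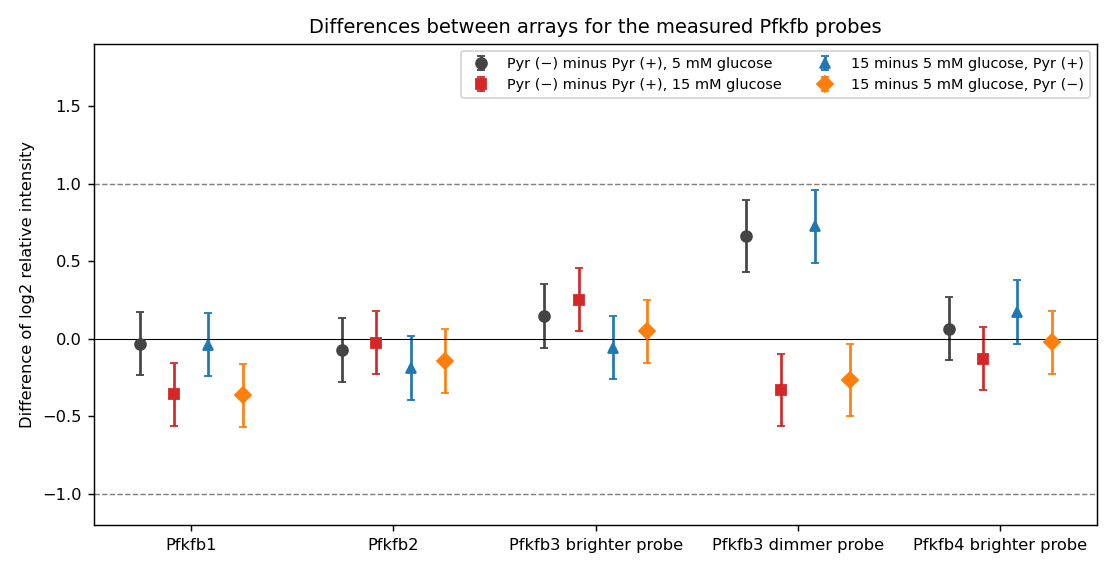
Difference of log2 relative intensity between 2 arrays (vertical axis) for the 5 measured Pfkfb probes in the 4 comparisons; bars are the software error of the difference and dashed lines mark 2-fold. The dimmer Pfkfb3 probe lies above 0 in 2 comparisons (0.66 and 0.73) and below 0 in the other 2, and all 20 points lie inside the dashed lines.

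No measured Pfkfb probe differed 2-fold in any comparison. For removal of pyruvate at 5 mM glucose the count was 0 of 5, beside 1.19% of the 29094 probes measured on both arrays, and at 15 mM it was 0 of 5 beside 2.1% of 27786. For 15 against 5 mM glucose it was 0 of 5 with pyruvate, beside 0.971% of 28220 probes, and 0 of 5 without pyruvate, beside 2.4% of 28213. With 5 probes and shares this small, a count of 0 does not set the family apart from the rest of the array. The smallest threshold tried, 1.5-fold, was passed only by the dimmer Pfkfb3 probe under the 75th percentile scaling, once for pyruvate at 5 mM glucose and once for glucose with pyruvate.

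The medians of the 5 probes were likewise small. For removal of pyruvate at 5 mM glucose the median log2 difference was 0.06, with 3 probes above 0 and 2 below, against −0.02 over all measured probes. At 15 mM glucose it was −0.13, with 1 probe above 0 and 4 below, against 0.03. For glucose with and without pyruvate the medians were −0.04 and −0.14, against −0.02 and 0.03. The members did not share a direction at 15 mM glucose without pyruvate, since Pfkfb1 lay 0.36 below and the brighter Pfkfb3 probe 0.25 above the array with pyruvate.

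**Figure D3:**
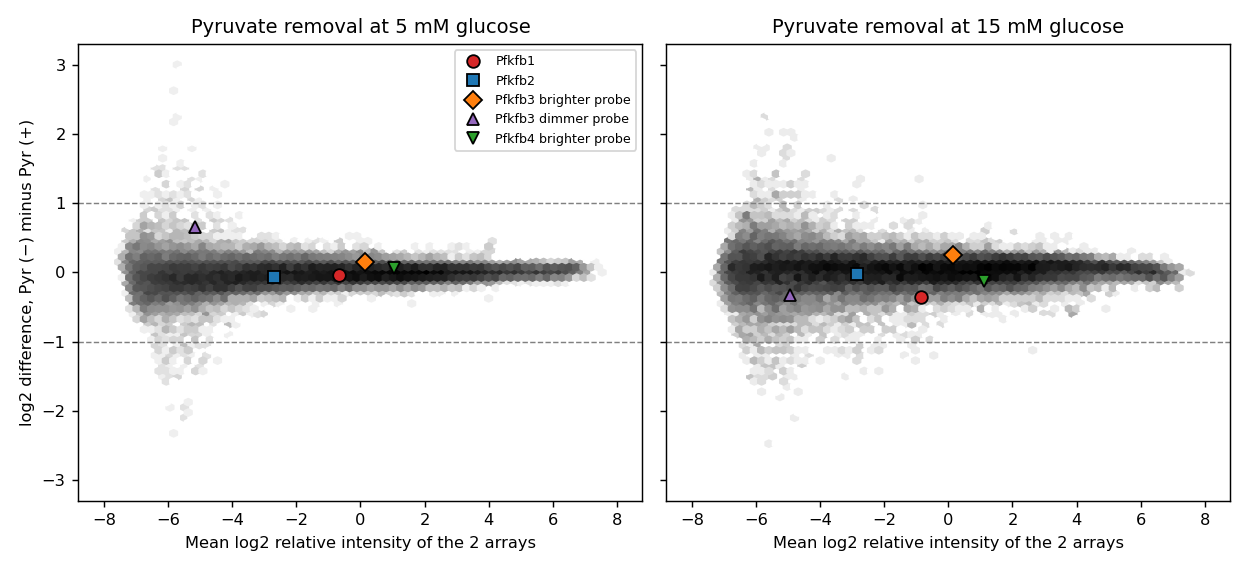
Log2 difference on removal of pyruvate (vertical axis, values beyond 3 drawn at 3) against mean log2 relative intensity of the 2 arrays (horizontal axis) for all probes well above background on both, shown as grey density on a log count scale, at 5 mM glucose (left) and 15 mM (right), with the 5 measured Pfkfb probes as coloured symbols and dashed lines at 2-fold. The spread widens at low intensity, where the dimmer Pfkfb3 probe lies, and is wider at 15 mM than at 5 mM.

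A limma fit with additive terms for glucose and pyruvate used all 4 arrays and left 1 residual degree of freedom, so a pyruvate effect that differs between the glucose concentrations is counted as residual error. With Benjamini-Hochberg adjustment at 0.05 over 31289 probes, it called 0% of probes for pyruvate and 0% for glucose, and 0 Pfkfb probes. At an unadjusted p under 0.05 it had 1080 of these 31289 probes for pyruvate and 1494 for glucose. Both are below a share of 0.05, the share this limit would pass with no effect. The Pfkfb probe with the largest coefficient for its error in the pyruvate term was the brighter Pfkfb3 probe, with a log2 coefficient of 0.20 ± 0.09 (SE) and an adjusted p of 0.984 by limma. For Pfkfb1 the coefficients were −0.20 ± 0.13 for pyruvate and −0.20 ± 0.13 for glucose, with adjusted p of 0.984 and 0.772 by limma. An adjusted p above the threshold does not show that the Pfkfb genes were alike across the groups.

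The enzymes on either side of fructose 2,6-bisphosphate were read from the same arrays. All 3 PFK-1 subunit genes were well above background on all 4 arrays. In any comparison 0 of 3 differed 2-fold, beside 0.971 to 2.4% of all measured probes. Pfkl, the liver-type subunit, read 1273, 1352, 1118 and 1237 in the order 5 mM glucose with and without pyruvate, then 15 mM glucose with and without pyruvate. Pfkm, the muscle-type subunit, read 3415, 3437, 3056 and 3070 in that order. The platelet-type subunit gene Pfkp had a probe that read 280, 291, 260 and 266, and a second one that read 58.8, 69.7, 54.4 and 64.8. The log2 difference on removal of pyruvate was 0.13 and 0.12 for Pfkl and 0.05 and −0.02 for Pfkm at 5 and 15 mM glucose. For Pfkp it was 0.10 and 0.003 at the brighter probe and 0.28 and 0.22 at the dimmer, with a mean over both of 0.19 and 0.11. For glucose the 3 genes lay between −0.03 and 0.05 with pyruvate and between −0.07 and −0.02 without. Under the spike-in scaling their median for glucose went from 0.002 to −0.35 with pyruvate and from −0.04 to −0.23 without. On removal of pyruvate at 5 mM glucose it went from 0.13 to −0.06. At 15 mM glucose the same median went from 0.11 to 0.003 with only the brightest probe of each gene, and to −0.02 under normexp.

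Among the enzymes that take fructose bisphosphates apart, Fbp1, the fructose-1,6-bisphosphatase of liver and kidney, read 288, 291, 288 and 324 in the same order, with log2 differences of 0.05 and 0.14 on removal of pyruvate at 5 and 15 mM glucose. Tigar, a phosphatase that also acts on fructose 2,6-bisphosphate, had a dimmer and a brighter probe. Its brighter probe read 3137, 2989, 2626 and 3279, and the log2 difference on removal of pyruvate at 15 mM glucose was 0.29 at the brighter probe and 0.27 at the dimmer. At 5 mM glucose the same differences were −0.03 and 0.02, so the readings of both Tigar probes lay close together in both comparisons. Fbp2, the muscle fructose-1,6-bisphosphatase, read 8.36, 9.76, 9.08 and 19.9 and was well above background only in [Glc 15 mM/Pyr (−)]. Its ratio there was 1.85 to the same glucose with pyruvate and 2.14 to 5 mM glucose without pyruvate. For both, the other array was taken at the lowest intensity that was well above background on it. No allowance was made for the error of either spot, so these ratios are not lower limits. Under the spike-in scaling the median of all probes moved by −0.20 for glucose without pyruvate. A single dim spot on 1 array carries the Fbp2 difference.

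The lists around the pathway held 35 genes in 6 groups, with the PFK-1 subunits and bisphosphatases among them. In any comparison, 0 measured genes of any list differed 2-fold, beside 0.971 to 2.4% of all measured probes. With shares this small, a count of 0 does not set the lists apart. Fbp2 was not counted, since it was not well above background on both arrays of any comparison. In the list for the supply of fructose 6-phosphate, all 6 genes were measured, with a median log2 difference of 0.04 and −0.12 on removal of pyruvate at 5 and 15 mM glucose, against −0.02 and 0.03 over all genes. The largest value in it was that of Hkdc1, a hexokinase-like gene, at 0.34 and 0.55, from intensities of 22.1 to 36.8. Of the aldolases, which split fructose 1,6-bisphosphate, 2 of 3 were measured, and Aldoc stood at 0.09 and 0.47. Its intensity was 728, 754, 722 and 1025, so the array at 15 mM glucose without pyruvate lay above the other 3.

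All 14 genes for kinases that phosphorylate PFKFB proteins were measured, among them the AMPK subunits. Their median was −0.05 and −0.01 on removal of pyruvate at 5 and 15 mM glucose, with 5 and 6 of 14 above 0. Prkag1, an AMPK gamma subunit with 1 probe, gave −0.36 at 15 mM and 0.45 between 5 and 15 mM glucose with pyruvate. In the latter comparison the spike-in scaling moved the median of all probes by −0.35. The intensity of Prkag1 was 5469 at 15 mM glucose with pyruvate and 4345 to 4529 on the other 3 arrays. The 6 genes for turnover and transcription of PFKFB had medians of 0.01 and −0.01. In this list Hif1a, which encodes a hypoxia-inducible factor known to induce Pfkfb3 and Pfkfb4, gave −0.31 on removal of pyruvate at 5 mM glucose and −0.46 between 5 and 15 mM glucose with pyruvate, as means over 2 probes that gave −0.16 and −0.76 in the latter. At 15 mM glucose its mean on removal of pyruvate was −0.13, from probes of opposite sign at −0.27 and 0.02.

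**Figure D4:**
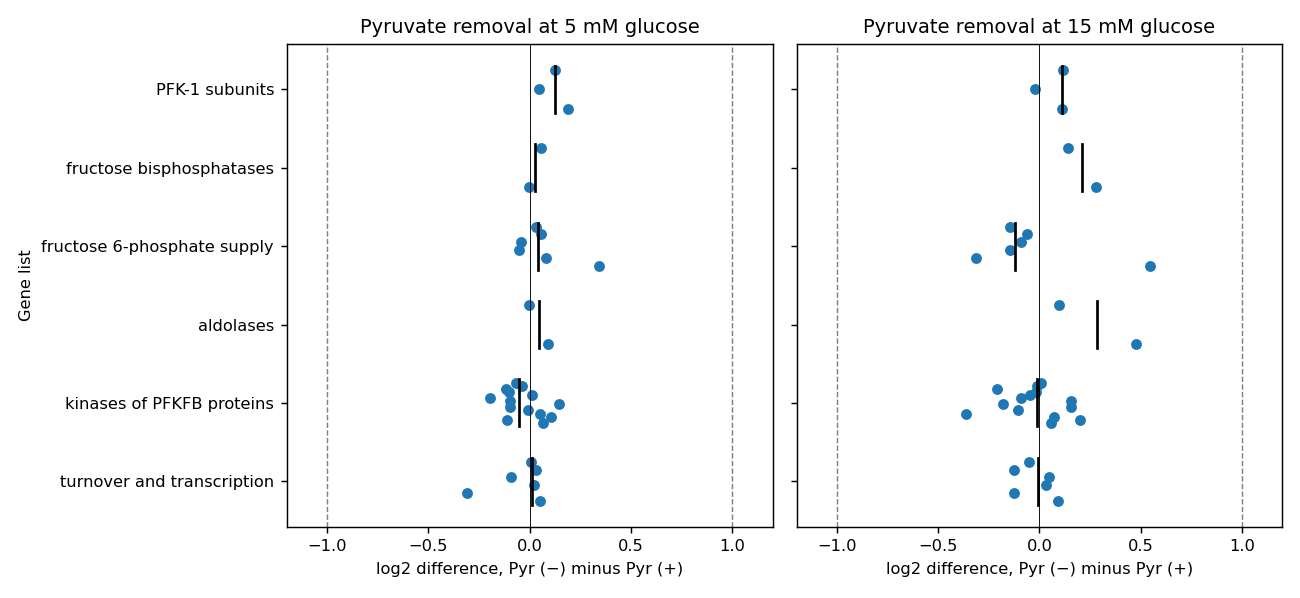
Log2 difference on removal of pyruvate (horizontal axis) at 5 mM glucose (left) and 15 mM (right) for each measured gene (points) of the 6 lists (vertical axis), with the median of each list as a bar and dashed lines at 2-fold. Every point lies inside the dashed lines, and the highest at 15 mM glucose are Hkdc1 at 0.55 and Aldoc at 0.47.

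Of 120 recomputed Pfkfb differences, 6 moved beyond the software error, 5 of them under the spike-in scaling and 1 under normexp, another background correction. Removal of pyruvate gave the dimmer Pfkfb3 probe between 0.39 and 0.77 at 5 mM glucose and between −0.37 and −0.25 at 15 mM over 6 alternative scalings and corrections. For Pfkfb1 at 15 mM glucose the range was −0.39 to −0.34, and for the brighter Pfkfb3 probe 0.22 to 0.25. The median of all probes itself moved by −0.19 for pyruvate at 5 mM glucose and by −0.35 for glucose with pyruvate when the arrays were scaled to the spike-in probes. The differences above, for Pfkfb and list genes alike, are therefore relative to the bulk of probes on each array.

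**Figure D5:**
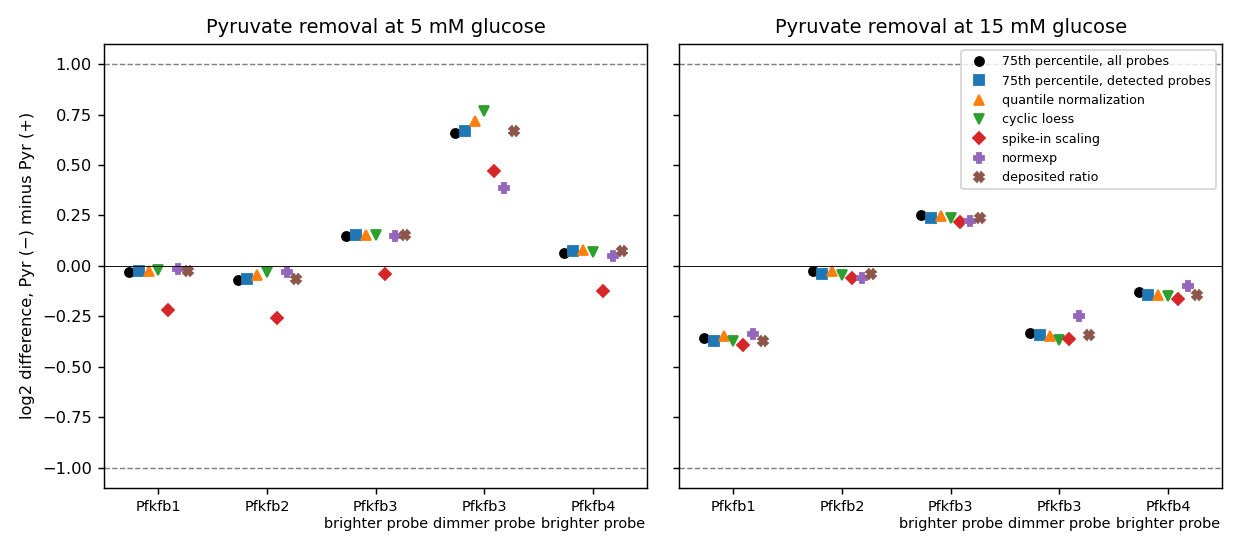
Log2 difference on removal of pyruvate (vertical axis) at 5 mM glucose (left) and 15 mM (right) for the 5 measured Pfkfb probes, under the scaling used and 6 alternatives (symbols), with dashed lines at 2-fold. At 5 mM glucose the spike-in scaling lies below the others for every probe except the dimmer Pfkfb3 probe, where normexp is lowest at 0.39.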

How the data were processed

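RNA of IMS32 cells in 4 conditions was hybridised to Agilent one-colour arrays, 1 for each condition. Per the submitters' processing notes, images were read with Feature Extraction 11.5.1.1, and the processed signal in the deposited scanner files is a spot intensity after background correction, with flags for each spot, and the authors also deposited a table that holds the ratio of this intensity to a percentile of the array (44397 features matched on each array; column medians 0.0566, 0.0553, 0.0535 and 0.0537; linear and uncentred). Control spots were left out, and so were outlier spots unless every spot of a probe was flagged. A probe printed as 1 spot, as each Pfkfb probe was, therefore kept that spot whether flagged or not. Spots of a probe were averaged on the log2 scale, and the 75th percentile of 39429 probes was subtracted. Differences were taken between 2 arrays for probes well above background on both, with a 2-fold threshold and no test. An additive model used limma 3.58.1 under R 4.3.3. Other steps used Python 3.11.15, numpy 2.4.6 and pandas 2.3.3. The calculations were tested on simulated data. All 35 list genes and all 4 members matched a RefSeq symbol. All members and every gene of the PFK-1 and bisphosphatase lists are named, the other lists' genes when among the 2 largest differences of a list and comparison, and for likeness the 3 nearest genes. The members and lists were chosen with earlier results of these data known. One Schwann cell marker is not reported here. The number of arrays limits the precision.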

Additional observations from a re-analysis of the deposited data

Results flagged for a closer look

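The dimmer Pfkfb3 probe stood apart because its single difference for pyruvate had opposite signs at the 2 glucose concentrations, 0.66 at 5 mM and −0.33 at 15 mM, and likewise that for glucose, 0.73 with pyruvate and −0.27 without. The pyruvate difference at 15 mM minus that at 5 mM was −0.99 on the log2 scale, and for the 2 by 2 layout the glucose difference without pyruvate minus that with it is the same number, −0.99. With 1 array per condition this difference was not tested. Over 9197 probes of the same low signal the same quantity had an SD of 0.55, and at the brighter Pfkfb3 probe it was 0.11.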

How the results depend on the processing

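Of 432 values recomputed under another scaling, background correction, filter, threshold, probe rule or variance model, 403 moved by less than their limit and 29 moved further. The limit was the software error for the difference of a probe, the SD between replicate spots for a list median and 1.5 times for a count. Coefficients of the additive fit were not held to these limits, and all were counted among the 403. With the spike-in scaling the glucose coefficient of Pfkfb1 went from −0.20 to −0.47, and that of the brighter Pfkfb4 probe from 0.07 to −0.20. At a 1.5-fold threshold the count of Pfkfb probes was 1 in place of 0 for pyruvate at 5 mM glucose and 1 in place of 0 for glucose with pyruvate. Of 120 Pfkfb differences, 6 moved beyond the software error, 5 with the spike-in scaling and 1 with normexp, and 4 changed sign, all with the spike-in scaling and none larger than 0.17 at the start. Of 168 list medians, 21 moved, 18 of them with the spike-in scaling. That scaling subtracts 1 value from a whole array, so it moved all lists of a comparison by the same amount. This amount was −0.19 for pyruvate at 5 mM glucose, and −0.35 and −0.20 for glucose with and without pyruvate. Why the arrays differed relative to the spike-in probes was not tested. The additive fit called 0 probes for both terms under every alternative, although under several the share at an unadjusted p under 0.05 was above 0.05 for glucose. No paired analysis was possible because each condition had 1 array and the labels give no replicate numbers. The number of arrays, and for the dimmer Pfkfb3 and Pfkfb4 probes the low signal over background, limit what these values can show.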
